A study of Homo sapiens with 6 samples.

Results

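The NRF2 antioxidant genes are NFE2L2, which encodes the transcription factor NRF2, KEAP1, which encodes its inhibitor, and 8 NRF2 target genes (NQO1, OSGIN1, GCLC, GCLM, SLC7A11, TXNRD1, SRXN1 and HMOX1). They were chosen by name, with no rule on their measured values, although earlier results of these data were known. Each was matched to 1 Ensembl identifier, giving 10 of the 62754 genes in the count table. RNA was sequenced from HEK293 cells, an adherent line from human embryonic kidney that the labels also call HEK293T, the derivative carrying SV40 large T antigen. The 3 control libraries (replicates 1, 2 and 3) were labelled only as control, and the 3 knockout (KO) libraries came from cells with FAM60A disrupted. FAM60A, now SINHCAF, belongs to the Sin3/HDAC complex, which removes acetyl groups from histones. The knockout cells had received Cas9 and guide RNAs against 3 regions of FAM60A and were selected with puromycin. The authors' methods describe such cells as a pool and name no single clone. All 6 libraries were from cells in the same serum-supplemented medium, with no oxidant or NRF2 activator named. The labels do not say that replicates were separate cultures, so the p-values measure only the spread between these libraries, which may be technical. Control replicate 3 is shown apart throughout, because it stood away from control replicates 1 and 2.

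NRF2 is a basic leucine zipper factor that is made continuously and, in unstressed cells, held by KEAP1, which hands it to a CUL3 ubiquitin ligase for degradation. Electrophiles and oxidants modify KEAP1, and NRF2 then accumulates, pairs with a small MAF protein (MAFF, MAFG or MAFK) and binds antioxidant response elements in its target genes. BACH1 competes with NRF2 for these elements, above all at HMOX1. The targets supply quinone reduction (NQO1), glutathione synthesis (GCLC, GCLM and the cystine importer SLC7A11), thiol repair (TXNRD1 and SRXN1) and haem breakdown (HMOX1). Because NRF2 is controlled mainly through its stability, the NFE2L2 transcript is not a measure of NRF2 protein.

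The antioxidant response element has the core TGACNNNGC, and this core was searched on both strands in the 250 bases before each RefSeq start site (GRCh38.p14). Windows were found for 8 of the 10 genes, not for HMOX1 and SLC7A11. The core was present in the windows of 3 of these 8 genes (GCLM, TXNRD1 and KEAP1), or 4 of their 11 windows, against 3830 of all 35116 windows (10.9%). The GCLM match lay on the strand opposite to the gene, 34 to 26 bases before the start. In TXNRD1, 1 match lay 99 to 91 bases before the first of its start sites on the strand of the gene, and another lay 102 to 94 bases before the second start site on the opposite strand. KEAP1 held matches 54 to 46 bases (same strand) and 31 to 23 bases (opposite strand) before its second start site. A match of these letters is a description and not evidence of binding. The stretches of GCLM and TXNRD1 are shown as examples of genes with the core, and that of NQO1 as the gene called lower in the KO libraries. Capitals mark the core, read on the strand of the gene (for GCLM they are its reverse complement), and the NQO1 stretch has none. That stretch is the 140 of the 250 searched bases that lie farthest from the start. No core was found in the rest of the 250, and sequence further from the start was not searched. The lack of capitals therefore does not show that NQO1 has no such element.
GCLM, chr1:93909456-93909680, minus strand: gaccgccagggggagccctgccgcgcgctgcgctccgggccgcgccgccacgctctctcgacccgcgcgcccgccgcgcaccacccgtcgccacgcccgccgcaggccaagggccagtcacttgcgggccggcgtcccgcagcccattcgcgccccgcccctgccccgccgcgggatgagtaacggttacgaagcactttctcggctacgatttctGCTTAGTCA
TXNRD1, chr12:104215529-104215778, plus strand: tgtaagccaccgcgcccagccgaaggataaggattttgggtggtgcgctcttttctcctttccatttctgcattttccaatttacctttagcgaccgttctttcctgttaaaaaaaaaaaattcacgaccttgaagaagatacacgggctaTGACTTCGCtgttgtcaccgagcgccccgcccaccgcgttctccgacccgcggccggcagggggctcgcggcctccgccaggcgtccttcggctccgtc
NQO1, chr16:69726671-69726810, minus strand: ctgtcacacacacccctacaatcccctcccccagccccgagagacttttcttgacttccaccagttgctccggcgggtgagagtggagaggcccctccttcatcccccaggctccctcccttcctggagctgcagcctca

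Library totals ranged from 88361827 to 93346824 counts. All 6 markers fixed for HEK293 had at least 10 counts in every library (81 to 67908), while 7 markers of blood, endothelial and fibroblast cells had 0 to 33. The latter summed to 14 to 34 counts in the controls and 39 to 57 in the KO libraries, decorin (DCN) alone having 0, 1 and 1 against 30, 33 and 33. The knockout was visible in the targeted gene: control counts of FAM60A were 11028, 10165 and 12792, against KO counts of 5684, 5793 and 5449, a log2 fold change (log2FC, KO over control) of -0.85 (SE 0.11, edgeR adjusted p = 0.00863), so much of the transcript was still counted. The call was lost without any 1 KO library (adjusted p 0.0571 to 0.0736). The authors checked the knockout in HEK293 cells by immunoblot and qRT-PCR, and transcript counts do not measure the protein. Mitochondrial transcripts took 4.63%, 3.97% and 5.57% of the counts in the controls and 8.70% to 10.1% in the KO libraries, and their part in the results was not tested. Among the 20992 genes with enough counts for testing, 16.6% were called at an adjusted p of at most 0.05 (7.96% higher and 8.67% lower in the KO libraries). Control replicate 3 was nearer to the knockout mean than to the mean of the other two controls, on the log2 scale, for 58.9% of the genes tested. Without it, 65.6% of the genes tested were called, and the values of the 10 genes are therefore given with and without this library. The 6 HEK293 markers also varied. Relative to the mean of control replicates 1 and 2, they ranged from 0.312 to 3.78 times in control replicate 3 and from 0.204 to 3.97 times in the KO libraries. The 5 markers fixed for MDA-MB-231, a breast cancer line, also had at least 10 counts in every library, so this threshold does not tell the lines apart. They summed to between 9758 and 40331 counts in the controls and 10221 to 10778 in the KO libraries. Most of this spread was annexin A1 (ANXA1), a phospholipid-binding protein, at 27771 and 28335 counts in control replicates 1 and 2, 1640 in control replicate 3 and 1703 to 1858 in the KO libraries, and its relation to the results was not tested.

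Of the 10 NRF2 antioxidant genes, 1 was called across all 6 libraries: NQO1 fell in the KO libraries. None was called higher with edgeR, while DESeq2 called 1 higher and limma-voom 0, beside 2466 and 1901 of the 20992 genes tested. An unadjusted edgeR p under 0.05 was found for 4 of the 10, 1 of them higher. Over all 20992 genes it was found for 7249 (3388 of them higher). The share called, 1 of 10, is no higher than the 16.6% of all genes called. When any 1 library other than control replicate 3 was left out, 0 of the 10 were called. Those fits called only 167 to 1049 of all genes, against 3491 with all libraries. The median log2FC of the 10 was -0.25, against -0.0081 over all genes tested, with 7 fitted lower and 3 higher. By values alone, 2 genes (KEAP1 and NQO1) were lower in every KO library than in any control, where 20.1% of all genes tested were, and 1 (SRXN1) was higher in every KO library, where 21.5% were. Without control replicate 3, all 10 were called, 3 higher and 7 lower, against 65.6% of all genes (32.4% higher and 33.2% lower). In that comparison 4 of the 10 (NQO1, OSGIN1, SLC7A11 and HMOX1) also had an absolute log2FC of at least 1, against 22.9% of all genes. For each of the 10 this comparison gave the lowest adjusted p of all 13 alternatives, while the highest lay between 0.146 (NQO1) and 0.997 (SLC7A11). Control replicate 3 was nearer to the knockout mean for 8 of the 10, the exceptions being KEAP1 and SRXN1, beside the 58.9% of all genes. In bulk RNA, fewer cells expressing a gene and less RNA per cell cannot be told apart.

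**Figure D1:**
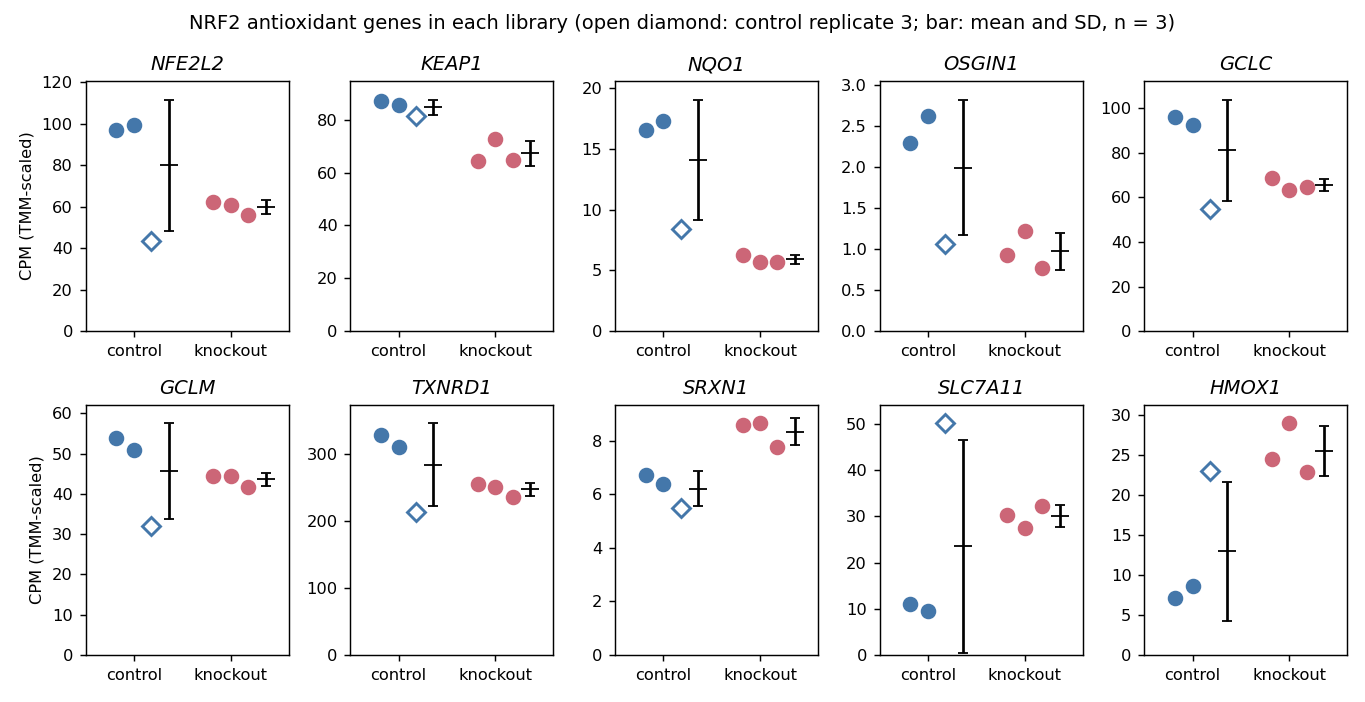
Expression of the 10 genes in each library, in CPM after TMM scaling (vertical axis from 0), with control libraries in blue and KO libraries in red. The open diamond is control replicate 3 and bars give the mean and SD (n = 3); the diamond lies within or next to the knockout points for HMOX1, OSGIN1 and NQO1, beyond them for NFE2L2, GCLC, GCLM, TXNRD1 and SLC7A11, and on the control side for KEAP1 and SRXN1.

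The regulators were examined first. NFE2L2 (ENSG00000116044, chromosome 2, 177230303 to 177264727) was at 97.0, 99.4 and 43.6 CPM for control replicates 1, 2 and 3, and at 62.3, 61.0 and 55.9 CPM for the KO libraries. CPM are read counts scaled to a common library size by TMM, edgeR's trimmed-mean scaling, and carry no correction for gene length. The knockout values lay between control replicate 3 and the other two, so the groups overlapped. Its mean was 80.0 ± 31.5 CPM in controls and 59.7 ± 3.40 in KO libraries (± SD of 3 libraries), with a log2FC of -0.42 (SE 0.30, adjusted p = 0.366). Without control replicate 3 the log2FC was -0.75 (SE 0.07, adjusted p = 1.54e-08), the knockout mean being 0.608 times that of control replicates 1 and 2. The exons of NFE2L2 overlap those of AGPS (7825 to 12930 counts) and HNRNPA3 (5046 to 6799 counts) on the opposite strand. Whether counting used the strand is not given in the sources used here, so some of these reads may not be told apart.

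KEAP1 (ENSG00000079999, chromosome 19, 10486125 to 10503356) gave control values of 86.9, 85.7 and 81.3 CPM and KO values of 64.3, 72.8 and 64.6 CPM. All 3 controls were above all 3 KO libraries, and control replicate 3 stayed with the controls. The means were 84.6 ± 2.98 and 67.2 ± 4.80 CPM (± SD of 3 libraries), a log2FC of -0.33 (SE 0.09) that missed the threshold by a small margin (adjusted p = 0.0532). DESeq2 called it (adjusted p = 0.00887), and so did edgeR scaled by library size (0.0240). The lowest and highest adjusted p among all 13 alternatives were 0.000139 and 0.219. In the fit without control replicate 3 the log2FC was -0.39 (SE 0.08, adjusted p = 0.000139).

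The ratio of NFE2L2 to KEAP1 counts, which needs no library scaling, was 1.12, 1.16 and 0.537 for the controls, against 0.969, 0.837 and 0.865 with FAM60A knocked out. The groups overlapped through control replicate 3, and the difference of the mean log2 ratios was 0.0049 (p = 1, two-sided exact permutation test, for which 0.1 is the smallest p with 3 against 3 libraries). Against control replicates 1 and 2 alone the difference was -0.36, the opposite sign.

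NQO1 (ENSG00000181019, chromosome 16, 69709401 to 69726560) encodes a quinone reductase and is a widely used readout of NRF2. Control replicates 1 and 2 held 1612 and 1665 NQO1 counts, control replicate 3 held 810, and the KO libraries 531, 503 and 502, or 16.6, 17.3, 8.38, 6.30, 5.73 and 5.68 CPM. All knockout values were below all controls, and control replicate 3 lay closer to them than to the other controls. The mean fell from 14.1 ± 4.96 to 5.91 ± 0.345 CPM (± SD of 3 libraries), a log2FC of -1.25 (SE 0.29, adjusted p = 0.0348). Leaving out control replicate 3 gave -1.55 (SE 0.09, adjusted p = 2.24e-12). The knockout mean was 0.348 times that of control replicates 1 and 2 and 0.705 times control replicate 3. The call was lost when any 1 of the other 5 libraries was left out, with an adjusted p of 0.0984 to 0.146.

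OSGIN1 (ENSG00000140961, chromosome 16, 83953240 to 83966332), an oxidative stress-induced growth inhibitor, had the lowest counts of the 10 genes. The controls held 223, 252 and 102, the KO libraries 78, 107 and 68. Knockout replicate 2 was slightly above control replicate 3 after scaling (1.22 against 1.06 CPM), so the groups overlapped. The means were 1.99 ± 0.826 and 0.972 ± 0.228 CPM (± SD of 3 libraries), with a log2FC of -1.03 (SE 0.38, adjusted p = 0.111, and 0.0481 with DESeq2). With control replicate 3 left out, the log2FC was -1.37 (SE 0.17, adjusted p = 3.97e-07). OSGIN1 overlaps MLYCD (209 to 368 counts) on the same strand, which leaves the assignment of shared reads uncertain.

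Glutathione synthesis begins with glutamate-cysteine ligase, whose catalytic subunit is GCLC and whose modifier subunit is GCLM. GCLC (ENSG00000001084, chromosome 6, 53497341 to 53545101) was at 95.8, 92.3 and 54.8 CPM in control and 68.6, 63.3 and 64.4 CPM in KO cells. GCLM (ENSG00000023909, chromosome 1, 93885199 to 93909430) had 53.9, 51.0 and 32.1 CPM against 44.5, 44.5 and 41.8. For both subunits the knockout values lay below control replicates 1 and 2 and above control replicate 3. Neither was called across all libraries: GCLC had a log2FC of -0.31 (SE 0.21, adjusted p = 0.349) and GCLM of -0.07 (SE 0.20, adjusted p = 0.837). The sign for GCLM turned positive without control replicate 1 (0.037) or control replicate 2 (0.015). With control replicate 3 left out, the log2FC values were -0.56 (SE 0.07, adjusted p = 1.03e-06) for GCLC and -0.30 (SE 0.07, adjusted p = 0.0014) for GCLM.

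The ratio of GCLC to GCLM counts was 1.78, 1.81 and 1.71 for the controls, against 1.54, 1.43 and 1.54 for the KO libraries. Here control replicate 3 stayed with the controls, and the groups did not overlap. The mean log2 ratio was lower by 0.23 in the KO libraries, with p = 0.1 in the two-sided exact permutation test, the smallest p that this design allows. Against control replicates 1 and 2 alone the difference was -0.26.

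SLC7A11 (ENSG00000151012, chromosome 4, 138164097 to 138242349) is the light chain of the cystine/glutamate exchanger and brings in the cystine from which glutathione is made. Of the 10 genes it had the widest relative spread among the controls, with 1070, 909 and 4848 counts (11.0, 9.46 and 50.2 CPM), against 2555, 2414 and 2855 counts (30.3, 27.5 and 32.3 CPM) in the KO libraries. Control replicate 3 was 4.90 times the mean of the other controls and the highest of all 6 libraries. Across all libraries the log2FC was 0.35 (SE 0.64, adjusted p = 0.730), and its sign turned negative without control replicate 1 (-0.0048) or 2 (-0.027). It was 1.52 in the fit without control replicate 3 (SE 0.10, adjusted p = 9.64e-12), the knockout mean being 2.94 times that of control replicates 1 and 2. Set against control replicate 3 alone, the knockout mean was 0.599 times as high.

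SLC3A2, the heavy chain that carries SLC7A11 to the plasma membrane, was at 132, 149 and 177 CPM in control and 173, 173 and 176 CPM in KO cells (log2FC 0.19, SE 0.12, adjusted p = 0.319). The ratio of SLC7A11 to SLC3A2 counts was 0.0832, 0.0635 and 0.284 for the controls, against 0.176, 0.159 and 0.183 for the KO libraries. The groups overlapped through control replicate 3, and the mean log2 ratio was higher by 0.59 in the KO libraries (two-sided exact permutation p = 0.4) or by 1.25 against control replicates 1 and 2.

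TXNRD1 (ENSG00000198431, chromosome 12, 104215779 to 104350307) is the cytosolic thioredoxin reductase. Control values were 329, 311 and 214 CPM and KO values 255, 252 and 236 CPM, the latter again between control replicate 3 and the other controls. The log2FC was -0.20 (SE 0.17, adjusted p = 0.449), and -0.40 without control replicate 3 (SE 0.08, adjusted p = 0.000117).

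SRXN1 (ENSG00000271303, chromosome 20, 646615 to 653200) is sulfiredoxin, which restores over-oxidized peroxiredoxins. Control values were 6.74, 6.39 and 5.49 CPM, and KO values 8.60, 8.65 and 7.77 CPM. All knockout values were above all controls, and control replicate 3 was the library farthest from the knockout. The means of 6.20 ± 0.646 and 8.34 ± 0.495 CPM (± SD of 3 libraries) differed by a log2FC of 0.43 (SE 0.15, adjusted p = 0.106), which DESeq2 called (adjusted p = 0.0355). Leaving out control replicate 3 gave a log2FC of 0.31 (SE 0.10, adjusted p = 0.0075).

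HMOX1 (ENSG00000100292, chromosome 22, 35381096 to 35394207) encodes haem oxygenase 1, which opens the haem ring to release iron, carbon monoxide and biliverdin. The controls held 697, 833 and 2220 counts and the KO libraries 2065, 2541 and 2025, or 7.17, 8.67 and 23.0 CPM against 24.5, 29.0 and 22.9. Control replicate 3 fell within the range of the KO libraries, at 2.90 times the mean of the other controls. The log2FC was 0.98 (SE 0.44, adjusted p = 0.175) with all libraries and 1.65 (SE 0.11, adjusted p = 1.65e-11) without control replicate 3, the knockout mean being 3.22 times that of control replicates 1 and 2. HMOX1 and NQO1 thus had fold changes of opposite sign in both fits.

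**Figure D2:**
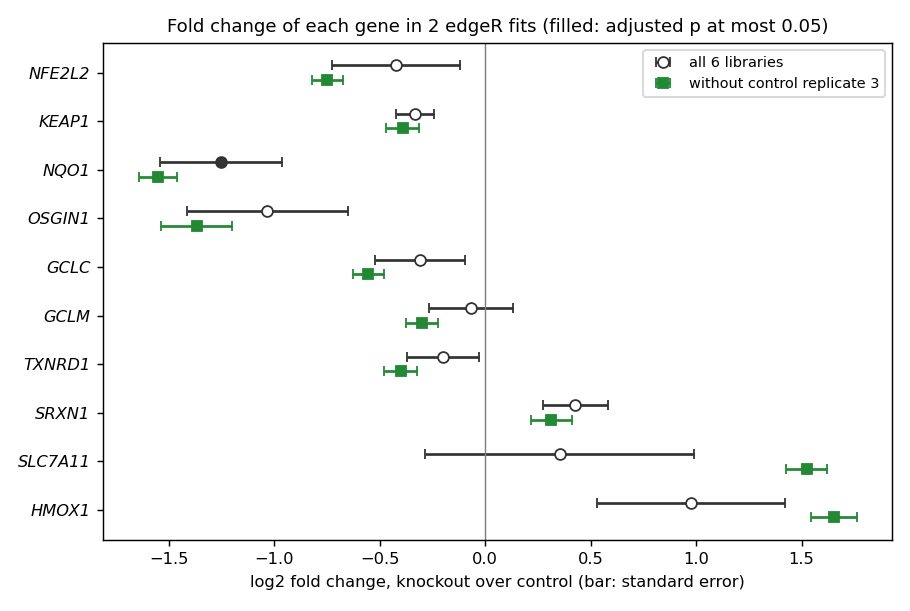
Log2 fold change of each gene, knockout over control, on the horizontal axis, with standard errors as bars. Circles are the edgeR fit of all 6 libraries and squares the fit without control replicate 3, filled where the adjusted p is at most 0.05: NQO1 is the only filled circle, all 10 squares are filled, and the bars of SLC7A11 shrink from 0.64 to 0.10.

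Levels were compared between genes per kilobase of transcript (RPKM, the CPM divided by the length of the annotated canonical transcript). In the controls TXNRD1 was highest at 73.7 ± 16.1 RPKM, followed by KEAP1 (33.0 ± 1.16) and NFE2L2 (32.7 ± 12.9). GCLC (21.4 ± 6.01), GCLM (9.35 ± 2.43), HMOX1 (8.33 ± 5.61) and NQO1 (5.59 ± 1.97) were intermediate, and SRXN1 (2.45 ± 0.256), SLC7A11 (2.44 ± 2.39) and OSGIN1 (1.04 ± 0.430) were lowest (± SD of 3 libraries). Neighbours in this order whose ranges of mean ± SD did not overlap were TXNRD1 and KEAP1, GCLC and GCLM, and NQO1 and SRXN1. In the KO libraries the order was TXNRD1 (64.2 ± 2.59 RPKM), KEAP1 (26.2 ± 1.87), NFE2L2 (24.4 ± 1.39), GCLC (17.3 ± 0.730), HMOX1 (16.4 ± 2.01), GCLM (8.92 ± 0.314), SRXN1 (3.30 ± 0.196), SLC7A11 (3.12 ± 0.251), NQO1 (2.34 ± 0.137) and OSGIN1 (0.506 ± 0.119). The pairs KEAP1 and NFE2L2, GCLC and HMOX1, and SRXN1 and SLC7A11 could not be ordered beyond their spread there. HMOX1 stood above GCLM in the KO libraries and NQO1 below SRXN1 and SLC7A11. In control replicate 3, HMOX1 (14.8 RPKM) was also above GCLM (6.57), and NQO1 (3.33) was below SLC7A11 (5.20) but above SRXN1 (2.17).

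Regulators, partners and relatives of NRF2 were described next, as 19 listed genes that were all tested. Of these, 3 were called (2 higher and 1 lower; 16.6% of all genes were called), and the median log2FC was -0.075. CUL1, the scaffold of the SCF ubiquitin ligase that removes NRF2 independently of KEAP1, fell from 122 ± 19.6 to 83.4 ± 4.69 CPM (log2FC -0.54, SE 0.14, adjusted p = 0.0439). SYVN1, an endoplasmic reticulum ubiquitin ligase that also targets NRF2, rose from 31.2 ± 2.35 to 50.7 ± 1.91 CPM (log2FC 0.70, SE 0.10, adjusted p = 0.00979). NFE2L3, a membrane-bound relative of NRF2, rose from 31.9 ± 2.62 to 46.3 ± 2.19 CPM (log2FC 0.54, SE 0.10, adjusted p = 0.0204). All 3 calls were lost without control replicate 1 or any 1 KO library, and SYVN1 alone was called without control replicate 2. These fits called 167 to 1049 of all genes. CUL1 was also lost without a filter on low counts (adjusted p = 0.0619).

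The small MAF partners and BACH1 were not called by edgeR across all libraries, and control replicate 3 was at or below the KO libraries or close to them in each. Control counts of MAFK were 5869, 6185 and 1492, against KO counts of 1638, 1774 and 1774 (log2FC -1.23, SE 0.49, adjusted p = 0.134), and DESeq2 called it (adjusted p = 0.0408, with 3.5e-14 to 0.326 over the 13 alternatives). MAFG had 10437, 11040 and 3870 counts against 4603, 5002 and 4810 (-0.66, SE 0.37, adjusted p = 0.254). MAFF had 673, 759 and 121 counts against 344, 378 and 341 (-0.39, SE 0.61, adjusted p = 0.684). For all 3, control replicate 3 was the lowest library of the 6. BACH1 had 5712, 5101 and 3338 counts against 2999, 2892 and 2856, with control replicate 3 just inside the range of the KO libraries after scaling (34.5 CPM, knockout 32.3 to 35.6). Its log2FC was -0.54 (SE 0.20, adjusted p = 0.114). In the fit without control replicate 3 the log2FC values were -1.68 for MAFK, -1.04 for MAFG, -0.89 for MAFF and -0.76 for BACH1, each called, as were 11 of the 19 genes (2 higher and 9 lower, beside 65.6% of all genes).

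Of 35 further NRF2 target genes, 31 were tested and 5 called (2 higher and 3 lower, beside 16.6% of all genes), with a median log2FC of 0.11. EPHX1, a microsomal epoxide hydrolase, fell from 56.3 ± 3.89 to 40.6 ± 1.18 CPM (adjusted p = 0.0219). PRDX1, a cytosolic peroxiredoxin, rose from 635 ± 95.8 to 1133 ± 46.1 CPM (log2FC 0.83, adjusted p = 0.0139), with reads that processed pseudogenes can share. ABCC1, an exporter of glutathione conjugates, rose from 73.6 ± 7.02 to 126 ± 9.08 CPM (log2FC 0.78, adjusted p = 0.00995). CBR1, a carbonyl reductase, was also called lower (log2FC -0.43, adjusted p = 0.0275). The list had 3 calls without control replicate 1 or 2, 1 without knockout replicate 2 and 0 without knockout replicate 1 or 3. These fits called 167 to 1049 of all genes.

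Some other target genes, chosen after their values were seen, resembled HMOX1 in lying far above control replicates 1 and 2 in both control replicate 3 and the KO libraries. MGST1, a microsomal glutathione transferase, held 424, 430 and 2633 control counts against 4944, 5156 and 4893 KO counts (log2FC 2.26, SE 0.75, adjusted p = 0.0869), with no overlap. It was called higher by DESeq2 (adjusted p = 0.00456) and limma-voom (0.0288), the 13 alternatives ranging from 2.08e-18 to 0.218. BLVRB, a biliverdin reductase that acts after haem oxygenase, had 1851, 2036 and 9516 counts against 6973, 7495 and 6782 (log2FC 0.82, SE 0.64, adjusted p = 0.401). FTH1, the ferritin heavy chain that stores iron and shares reads with many pseudogenes, had 6126, 6172 and 13094 counts against 11168, 12304 and 11486 (log2FC 0.62, SE 0.31, adjusted p = 0.206). Some other genes of the list did not share this. FTL was 1.37 times the mean of control replicates 1 and 2 in control replicate 3 and 1.15 times in the KO libraries. AKR1C3 was at 0.0686 and 0.229 times that mean, and AKR1B10 at 0.0910 and 0.339 times, with 3 to 95 counts per library. Without control replicate 3 the log2FC values of MGST1, BLVRB and FTH1 were 3.67, 1.99 and 1.05, and 18 of the 31 genes were called (10 higher and 8 lower, beside 65.6% of all genes).

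**Figure D3:**
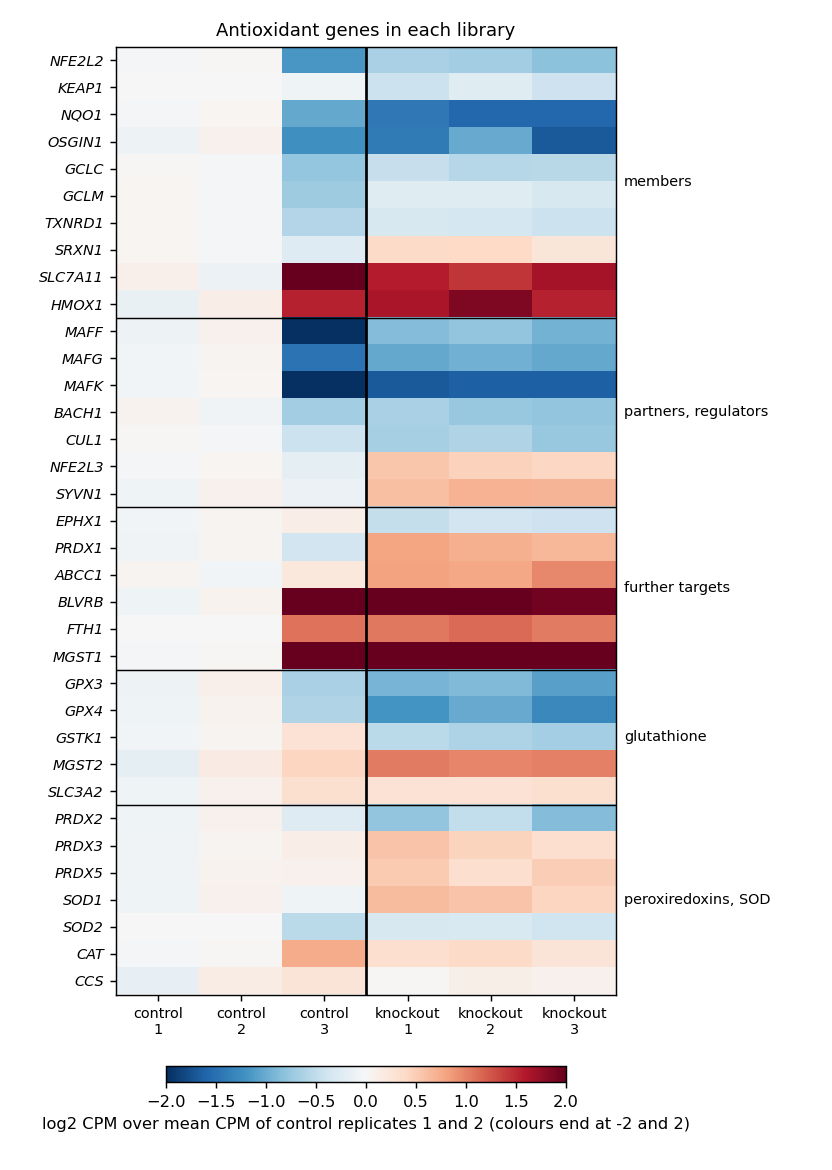
Log2 CPM of the 10 genes and most other genes named here, relative to the mean of control replicates 1 and 2, in each of the 6 libraries (columns). Blue is lower and red higher, with colours ending at -2 and 2. The control replicate 3 column has the same sign as the knockout columns for NFE2L2, NQO1, OSGIN1, HMOX1, SLC7A11, the small MAF genes (further from 0 than the knockout for MAFF) and BLVRB. It has the opposite sign for SRXN1, NFE2L3, SYVN1, EPHX1, GSTK1, PRDX1 and SOD1.

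Among 27 tested genes of the glutathione system (of 30), 6 were called, 3 higher and 3 lower, beside 16.6% of all genes (7.96% higher and 8.67% lower), with a median log2FC of 0.12. GPX4, which reduces lipid peroxides, fell from 218 ± 50.0 to 110 ± 11.2 CPM (log2FC -0.99, SE 0.19, adjusted p = 0.0211). GPX3, a secreted peroxidase, fell by 0.78 on the log2 scale (SE 0.20, adjusted p = 0.0447), and GSTK1, a glutathione transferase of mitochondria and peroxisomes, by 0.71 (SE 0.12, adjusted p = 0.0144). MGST2 rose from 20.2 ± 4.30 to 36.4 ± 0.803 CPM (log2FC 0.85, SE 0.17, adjusted p = 0.0226), and CHAC2 and GPX1 were the other genes called higher. The call of GPX3 was lost with limma-voom (adjusted p = 0.0563) and without a filter on low counts (0.0508). In the fit without control replicate 3, 20 of the 27 were called (13 higher and 7 lower, beside 65.6% of all genes), against 2 without control replicate 1 and 0 without control replicate 2 or any 1 KO library. The fits that kept control replicate 3 but left out another library called 167 to 1049 of all genes.

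Of 17 thioredoxin and peroxiredoxin genes, all tested, 3 were called, beside 16.6% of all genes, with a median log2FC of 0.14. PRDX5 and PRDX3, both found in mitochondria, rose by log2FC values of 0.43 (SE 0.10, adjusted p = 0.0317) and 0.41 (SE 0.11, adjusted p = 0.0450). Both calls were lost with library size in place of TMM (adjusted p = 0.0600 and 0.0807) and without a filter on low counts (0.0584 and 0.0851). PRDX2, a cytosolic one, fell by 0.62 on the log2 scale (SE 0.14, adjusted p = 0.0334). Without control replicate 3, 14 of the 17 were called, 10 higher and 4 lower, beside 65.6% of all genes (32.4% higher and 33.2% lower). Of the superoxide dismutases and catalase, 1 of 4 tested genes was called, beside 16.6% of all genes, and SOD1 rose from 656 ± 45.2 to 977 ± 68.9 CPM (log2FC 0.57, SE 0.10, adjusted p = 0.0190). SOD2 (log2FC -0.18, adjusted p = 0.452), CAT (0.03, adjusted p = 0.931) and CCS, the copper chaperone of SOD1 (-0.01, adjusted p = 0.964), were not called, and SOD3, with 0 to 7 counts per library, was not tested. Leaving out control replicate 3, 3 of these 4 tested genes were called (2 higher and 1 lower, beside the same 65.6%). Without any 1 of the other libraries, no gene of either list was called, beside 167 to 1049 of all genes.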

How the data were processed

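RNA-seq of HEK293 cells comprised 3 control libraries and 3 libraries with FAM60A knocked out, grouped by their labels. The authors deposited whole-number counts for 62754 Ensembl genes without normalization, of which 60878 identifiers were matched to a symbol. Their methods name poly(A) selection, strand-specific preparation, read trimming with Trimmomatic and quantification with Salmon on hg38. The submitters' processing notes list STAR 2.7.10b, featureCounts 2.0.0 and hg38, and another label names hg19; the annotation release and whether counting used the strand are not given in the sources used here. Coordinates and promoter windows are from RefSeq (GRCh38.p14), and transcript lengths and gene overlaps from GENCODE on GRCh37.

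Counts were scaled by TMM, filtered with filterByExpr (minimum count 10) and compared by the two-sided quasi-likelihood F-test of edgeR 4.0.16 (R 4.3.3), with Benjamini-Hochberg adjustment over the 20992 genes tested and calls at an adjusted p of at most 0.05. The common dispersion was 0.0854. SE was the absolute log2 fold change divided by the square root of F. Ratios were compared by exact permutation tests. Alternatives were DESeq2 1.42.0, limma-voom (limma 3.58.1; the authors used limma), library size, upper quartile, no filter, at least 10 counts in every library, the replicate number as a block and each library left out in turn. Only the main edgeR fit was tried on simulated counts, which had a lower dispersion than these data and no outlying control library. That trial does not bear on the alternatives or on the effect of control replicate 3. Tables were handled in Python 3.11.15 and figures drawn with matplotlib 3.10.9.

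The genes, lists and tests were chosen with earlier results of these data known, including the position of control replicate 3. The text names the 10 genes, FAM60A, BACH1, the small MAF genes, SLC3A2, the superoxide dismutase and catalase list and, from each other list, up to 4 called genes with the largest fold changes among those without overlap between groups. ANXA1, DCN, MGST1, BLVRB, FTH1, FTL, AKR1C3, AKR1B10, CBR1, CHAC2 and GPX1 were named after their values were seen. Raw reads were not analysed here, and 1 gene that the rule would name is not reported here.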

Additional observations from a re-analysis of the deposited data

How the results depend on the processing

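Over the 13 alternatives, GCLM changed sign without control replicate 1 or 2 (log2 fold changes 0.037 and 0.015, down to -0.30 without control replicate 3), as did SLC7A11 (-0.0048 and -0.027, up to 1.52 without control replicate 3). CAT did so with library size (-0.077) and without control replicate 1 (-0.13) or 2 (-0.087, up to 0.29 without control replicate 3), and CCS without control replicate 2 (0.014), control replicate 3 (0.048) or knockout replicate 1 (0.020, down to -0.15 without control replicate 1). FTL ranged from -0.12 to 0.17, and no other named gene changed sign. Calls over all genes numbered 3491, and 5581 with DESeq2, with a range of 167 to 14221 when 1 library was left out (14221 without control replicate 3, 1049 and 796 without control replicates 1 and 2, and 167, 503 and 189 without knockout replicates 1, 2 and 3). Of the 10 NRF2 antioxidant genes, DESeq2 called 1 higher and 3 lower (NQO1, KEAP1 and OSGIN1), beside 2466 higher and 3115 lower of all genes. With library size, edgeR called 2 of the 10 lower (NQO1 and KEAP1), beside 3903 of all genes in either direction. With 1 library left out, 0 to 3 of the 10 were called higher and 0 to 7 lower, all of these without control replicate 3. Further targets called were 8 with DESeq2 (5 in the main comparison), thioredoxin and peroxiredoxin genes 6 with DESeq2 and 1 without a filter (3), and glutathione genes 3 without a filter (6). The ranges with 1 library left out were 0 to 11 for the regulators, 0 to 18 for further targets, 0 to 20 for glutathione genes, 0 to 14 for thioredoxin and peroxiredoxin genes and 0 to 3 for superoxide dismutases and catalase. The cause of these differences was not tested. The log2 fold change of FAM60A was between -0.92 and -0.78 with 1 library left out. Library size in place of TMM moved the median log2 fold change of all genes from -0.0081 to -0.12, and the share of calls that were higher from 47.9% (1671 of 3491) to 31.6% (1235 of 3903).

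Same-numbered libraries did not deviate together from their group means (correlations 0.0101, 0.0306 and -0.0362), so no pairing by number was seen. The distance of control replicate 3 from the other controls could hide one. With the replicate number as a block, 407 genes were called, with 0 of the 10 NRF2 antioxidant genes higher and 0 lower (4 at an unadjusted p under 0.05), 0 of the regulators, 2 further targets, and 0 of the glutathione, thioredoxin and peroxiredoxin, and superoxide dismutase lists. The log2 fold change of FAM60A with the block was -0.84 (adjusted p = 0.0551).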
